A study of Mus musculus with 2 samples.

Results

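Cluster 8 is 1 of the clusters of cardiac interstitial cells that the study named T cells, and the deposited comparison of both genotypes in it listed 543 genes, out of 6477 distinct genes listed over the 18 cluster tables used here. All rows of that table were taken. For each gene it gave the share of the cluster's cells with a count above 0 in each of 2 single-cell libraries, 1 per genotype, and these shares, printed as percent, are the authors' values. A difference is given in percentage points, as the library labelled depleted minus the control library.

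Control hearts came from PostnMCM mice, in which a tamoxifen-inducible Cre recombinase is made from the Postn locus, a gene that myofibroblasts of the injured heart express. The other hearts came from Yap fl/fl;Wwtr1 fl/+;PostnMCM mice, in which both alleles of Yap and 1 allele of Wwtr1 can be excised by the same Cre. Both strains carried the R26-eGFP reporter, were 8 to 10 weeks old at surgery, underwent ligation of the left anterior descending artery and received chow with 0.4 g/kg tamoxifen. Per the labels hearts were taken 6 days after the infarction, while the study's methods give another day. How many animals went into each library is not given in the sources used here. The cells meant to lose Yap and Wwtr1 were thus Postn-expressing fibroblasts and not T cells.

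A T cell recognises peptides through its receptor, whose CD3 chains pass the signal on, and CD8 marks the T cells that read peptides on MHC class I. Naive and central memory T cells circulate through lymphoid organs under the transcription factors Klf2 and Tcf7 and the chemokine receptor Ccr7, and live on interleukin-7 through Il7r and the survival protein Bcl2. Interferons act on T cells through Irf9 and other transcription factors, which switch on antiviral and antigen presentation genes. T cells enter the infarcted heart in the days after injury together with neutrophils and macrophages.

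The values carry limits that hold throughout. With 1 library per genotype there is no replicate, so no test of genotype was made and every difference describes these 2 libraries. The table held only genes reaching a share of 25% in 1 library or both and past the authors' limit of 0.25 on their log2 fold change, so a gene that is not listed has no value here, and being listed already depended on the comparison of both libraries. Cell numbers and counts per cell were not in the tables, so the depth behind a share is unknown. The median step between neighbouring distinct shares was 0.6 points in the control library and 2.1 points in the library labelled depleted. A difference of a few points is therefore close to the resolution of the second library.

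The targeted transcripts could check the labels only in part, since a share of cells with a count does not measure excision. Neither Yap1 nor Wwtr1 nor Postn was listed in any cluster table. In the 4 fibroblast subclusters with tables, Yap1 was found in 23.3% to 57.5% of control cells and in 40% to 56.2% of cells in the library labelled depleted. Its share was lower in the latter only in subcluster 4, at 40% against 57.5%, and was higher in subclusters 0, 3 and 5. In subcluster 4 the shares read in the library labelled depleted moved in steps of 10 points, so few cells lie behind them. Wwtr1 was lower in subclusters 3, 4 and 5, at 91.3% against 93.3%, 60% against 80% and 85.7% against 100%, and higher in subcluster 0, at 90.6% against 81.4%. Postn itself was found in 13% to 100% of fibroblasts in the library labelled depleted, depending on the subcluster. These shares cannot decide whether excision took place. Because Yap1 did not run as labelled in every subcluster, this library is named below by its label, as the library labelled depleted.

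The cells of cluster 8 carried T cell transcripts in both libraries. Of 17 T cell markers, 7 were listed, with shares of 70.2% to 98.8% in the control library (median 83.0%) and 64.6% to 97.9% in the library labelled depleted (median 85.4%). Cd3g, a CD3 chain of the receptor, was found in 98.8% of control cells and 97.9% of cells in the library labelled depleted, and Cd3e in 88.9% and 89.6%. These shares were nearly equal. Cd8a, the alpha chain of CD8, was found in 87.1% and 95.8%, the only defining CD8 chain listed, since Cd8b1 had no value in this table. None of the 8 CD4 and regulatory T cell markers and none of the 9 natural killer cell markers were listed. The listed markers go with the T cell name, with a CD8 chain in most cells of both libraries.

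As a measure of free RNA, the T cell markers were read in the fibroblast subclusters, which should lack them. Their shares there were 0% to 56.7% in the control library (median 6.7%) and 0% to 60% in the library labelled depleted (median 11.2%), and Thy1, which fibroblasts also make, was the highest. Cd3g was found there in 0% to 8.3% of control cells and in 14.3% to 30% of cells in the library labelled depleted. Cd8a was found in 0% to 6.7% and in 8.7% to 30%. For Cd3g and Cd8a the shares in cluster 8 lay above those, and the fibroblast shares were higher in the library labelled depleted in all 4 subclusters. Lat was found in 5% to 8.7% of control fibroblasts and 18.8% to 40% of the others, and Bcl11b in 1.4% to 10% and 9.4% to 28.6%. Both were also higher in all 4 subclusters. Cd2 and Ms4a4b ran the other way, with 4.1% to 17.4% and 5% to 8.7% of control fibroblasts and 0% to 13% and 0% to 4.8% of the others. The depths of the subclusters are unknown.

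Other markers of the T cell list were less even. Cd2, an adhesion receptor, was found in 70.2% of control cells and 83.3% of cells in the library labelled depleted, Lat, the adaptor of receptor signalling, in 76.6% and 85.4%, and Bcl11b, a T lineage transcription factor, in 83% and 93.8%. Ms4a4b ran the other way, at 98.2% and 83.3%, as did the adaptor Skap1, at 80.1% and 64.6%. Of the CD8 lineage list, Nkg7, a granule protein, was found in 83.6% and 77.1%. Over the 7 markers, 3 shares were lower and 4 higher.

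Over all 543 genes, the share was lower in the library labelled depleted for 188 genes (34.6%), higher for 327 (60.2%) and equal for 28, and the median difference was 7 points. At a size of 10 points or more, 147 genes (27.1% of those listed) were lower and 220 (40.5%) were higher. These percentages are the background against which each gene group is read below. The split depended on scale. Centred on the median difference, 178 genes were at least 10 points lower and 75 higher, and 46 genes were lower and 34 higher by at least 1 on the log2 ratio of shares. No majority direction is therefore drawn. In 75 genes the share in the library labelled depleted, and in 123 genes the control share, lay under the 25% limit. Each of these genes was listed only through the library in which it was higher. In 40 genes the higher of both shares lay between 25% and 27%, just inside that limit.

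**Figure D1:**
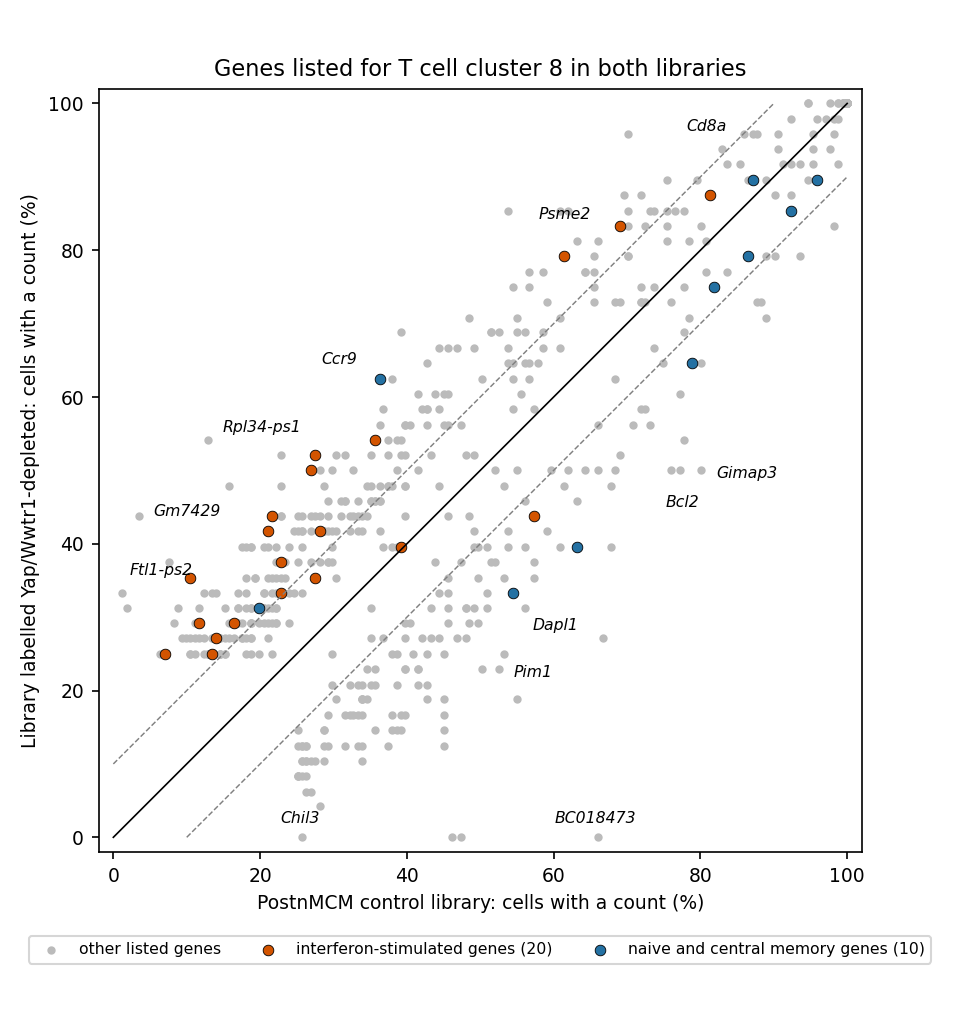
Each point is 1 of the 543 genes listed for cluster 8, placed by the percent of cells with a count in the control library (horizontal axis) and in the library labelled depleted (vertical axis). The solid line marks equal shares and the dashed lines a difference of 10 points. The empty lower left corner is the 25% limit of the table, 19 of the 20 interferon-stimulated genes lie above the solid line, and 7 of the 10 naive and central memory genes lie below it.

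Among the listed genes of naive and central memory T cells, more had a lower than a higher share in the library labelled depleted, but few by 10 points. Of 21 genes in that list 10 were listed, 7 of them lower and 3 higher (8 lower after centring on the median of all genes), with a median difference of -6.95 points beside 7 points over all listed genes. Over all listed genes 34.6% were lower and 60.2% higher. At 10 points or more 3 were lower and 2 higher, beside 27.1% lower and 40.5% higher over all listed genes. The 3 of 10 lower were thus near that background. Klf3, a transcription factor related to Klf2, was found in 63.2% of control cells and 39.6% of cells in the library labelled depleted. Igfbp4, a binding protein of insulin-like growth factors, was found in 54.4% and 33.3%, and Il7r, the interleukin-7 receptor, in 78.9% and 64.6%. These 3 had the largest differences of the list on the lower side. In the fibroblast subclusters Klf3 was found in 76.7% to 95.7% of control cells and 80% to 96.9% of the others, and Igfbp4 in 93.3% to 100% and 61.9% to 100%, while Il7r was found in 0% to 6.7% and in 0%. The fibroblast marker Mgp stood at 33.3% and 12.5% in cluster 8, and the part of fibroblast RNA in these differences was not tested.

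The remaining lower genes of that list differed by less than 10 points. Klf2, which keeps T cells in circulation, was found in 95.9% and 89.6%, and Ccr7, the lymph node homing receptor, in 81.9% and 75%. Slfn2, a quiescence gene, was found in 86.5% and 79.2%, and Arl4c in 92.4% and 85.4%. Tcf7 had a slightly higher share, with 87.1% and 89.6%. Tespa1, which acts in receptor signalling during thymic development, was found in 19.9% and 31.2%, and was listed only through the library in which it was higher. Ccr9, a chemokine receptor of gut homing and of thymocytes, stood furthest on the higher side, with 36.3% and 62.5%. The list therefore did not run in a single direction.

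Survival genes near this list were split. Bcl2, at chromosome 1, positions 106465908 to 106642060 (GRCm39, minus strand), was found in 77.2% of control cells and 50% of cells in the library labelled depleted. Pim1, a cytokine-induced survival kinase, was found in 52.6% and 22.9%, and Pim2 in 29.8% and 25%. Mcl1, a survival relative of Bcl2, was near even at 90.6% and 93.8%. The receptor chains were on the other side, with Il2rg, the common gamma chain, at 66.1% and 81.2% and Il21r at 37.4% and 52.1%. Of the 6 listed genes of common gamma chain signalling, 3 were lower and 3 higher.

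Gimap3, a GTPase of lymphocytes encoded on chromosome 6, was found in 80.1% of control cells and 50% of cells in the library labelled depleted. Its relatives Gimap1, at 64.3% and 50%, and Gimap4, at 71.9% and 58.3%, were chosen after their values were seen. Dapl1, of the CD8 lineage list, was found in 56.1% and 31.2%.

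**Figure D2:**
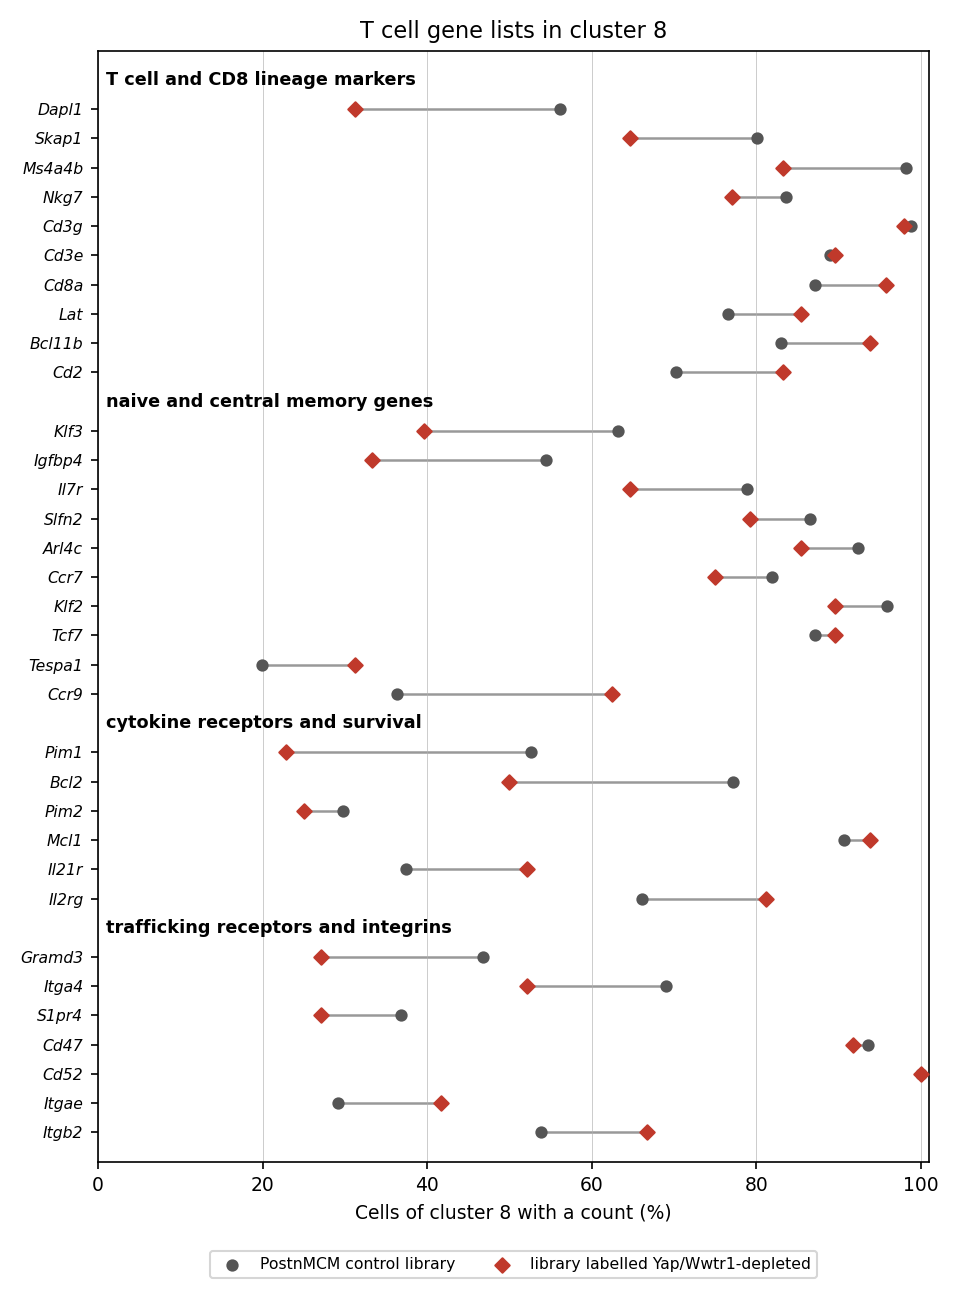
Percent of cluster 8 cells with a count, for the listed genes of 4 lists, in the control library (grey circles) and in the library labelled depleted (red diamonds), joined by a line for each gene and ordered by difference within a list. Cd3g and Cd3e overlap, Pim1 and Bcl2 have differences of -29.7 and -27.2 points, and Ccr9 lies 26.2 points higher.

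Interferon-stimulated genes stood mostly on the higher side. Of 56 genes in that list 20 were listed, 19 with a higher and 1 with a lower share (17 above the median of all genes after centring), and 16 (against the background of 40.5%) were higher by at least 10 points. The median difference was 14.5 points beside 7 over all listed genes. For 10 of the 20 the control share lay under 25%, so those genes were listed only through the library in which they were higher. Of the 10 at 25% or more in both libraries, 6 were higher by at least 10 points, beside 121 of all 345 such genes (35.1%), and centring on the median difference of all genes left 9 of the 16.

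Components of the signalling pathway itself were among them. Irf9, a transcription factor of the interferon response, was found in 21.6% of control cells and 43.8% of cells in the library labelled depleted, its relative Irf1 in 35.7% and 54.2%, and Irf7 in 11.7% and 29.2%. The 3 shares were each 17.5 to 22.2 points higher.

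Antiviral effectors followed the same order of shares. Apobec3, a cytidine deaminase that restricts retroviruses, was found in 10.5% and 35.4%, and Bst2, which tethers budding virus, in 27.5% and 52.1%. Trim12a was found in 26.9% and 50%, Slfn8 in 21.1% and 41.7%, Mndal in 61.4% and 79.2% and Ifit1, which binds foreign RNA, in 7% and 25%. The guanylate-binding protein Gbp9 was found in 22.8% and 37.5%, Gbp4 in 22.8% and 33.3%, and the GTPase Irgm1 in 13.5% and 25%. All of these lay on the higher side by at least 10 points.

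The remaining members include the exception. Zbp1, a sensor of nucleic acid, was found in 16.4% and 29.2%, Rtp4 in 14% and 27.1%, Parp14 in 28.1% and 41.7%, and Psme2, an activator of the proteasome, in 69% and 83.3%. Ifi214 was found in 27.5% and 35.4%, Ifi27l2a in 81.3% and 87.5% and Trim30a in 39.2% and 39.6%. Samhd1, a hydrolase of nucleotides, was the gene with a lower share, at 57.3% and 43.8%.

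Presentation genes of MHC class I that were listed had higher shares as well. Tapbp, which loads peptide on class I molecules, was found in 46.8% of control cells and 66.7% of cells in the library labelled depleted, Tap1, the peptide transporter, in 39.2% and 52.1%, and Nlrc5, the class I transactivator, in 14.6% and 25%. These are 3 of the 16 genes in that list, and Nlrc5 was listed only through the library in which it was higher. H2-T10, a nonclassical class I gene outside the list, was found in 7.6% and 37.5%.

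**Figure D3:**
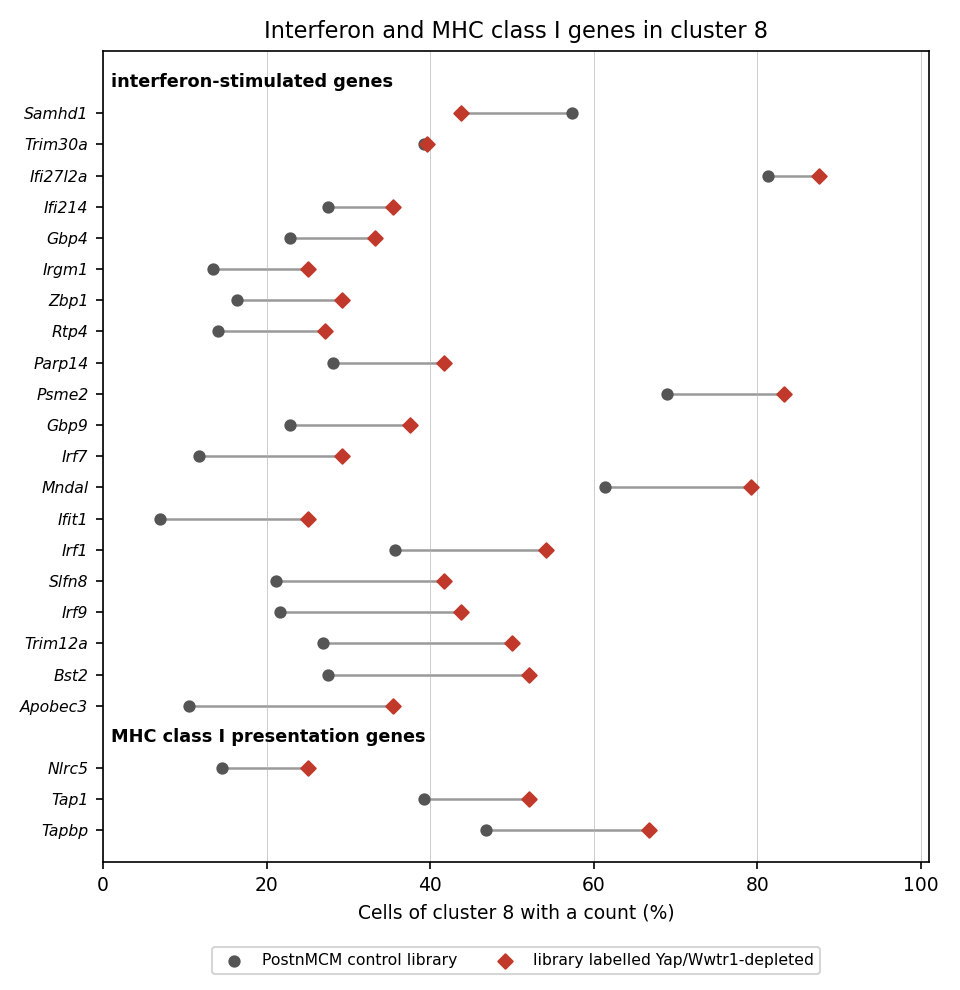
Percent of cluster 8 cells with a count for the 20 listed interferon-stimulated genes and the 3 listed MHC class I presentation genes, in the control library (grey circles) and in the library labelled depleted (red diamonds). Samhd1 is the gene with a lower share, Trim30a is nearly even, and Apobec3 lies 24.9 points higher.

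Several of these genes were listed in many cell types. Apobec3 was listed in 13 of the 17 other cluster tables and was higher in the library labelled depleted in each. Bst2 was listed in 12, higher in 11 and equal in 1, and Trim12a in 11, higher in each. Irf1 was listed in 3 others, with a lower share in all 3. Gbp9 and Nlrc5 were listed in cluster 8 alone.

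The promoters of 3 of these genes, Bst2, Apobec3 and Ifit1, are shown because their shares were among those compared above and they hold the sequence that interferon-activated factors are known to bind. The motif searched was GAAA, any 2 bases and GAAA again, read on both strands so that TTTC, any 2 bases and TTTC counts too, and overlapping matches were allowed. Each line gives the 250 bases before the RefSeq gene start on the gene's own strand (build GRCm38.p6), from 5′ to 3′, with the motif in capitals. Bst2 lies at chr8:71537473-71537722 on the minus strand, Apobec3 at chr15:79892158-79892407 on the plus strand and Ifit1 at chr19:34640639-34640888 on the plus strand.
Bst2: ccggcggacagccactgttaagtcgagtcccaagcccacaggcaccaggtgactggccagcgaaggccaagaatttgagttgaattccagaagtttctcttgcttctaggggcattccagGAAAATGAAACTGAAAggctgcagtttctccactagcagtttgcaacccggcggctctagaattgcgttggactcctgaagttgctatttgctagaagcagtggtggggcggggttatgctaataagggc
Apobec3: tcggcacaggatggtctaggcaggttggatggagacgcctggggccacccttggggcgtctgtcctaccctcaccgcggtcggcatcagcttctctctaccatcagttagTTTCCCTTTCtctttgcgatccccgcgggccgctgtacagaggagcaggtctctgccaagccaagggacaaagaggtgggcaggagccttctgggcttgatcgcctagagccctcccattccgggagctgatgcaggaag
Ifit1: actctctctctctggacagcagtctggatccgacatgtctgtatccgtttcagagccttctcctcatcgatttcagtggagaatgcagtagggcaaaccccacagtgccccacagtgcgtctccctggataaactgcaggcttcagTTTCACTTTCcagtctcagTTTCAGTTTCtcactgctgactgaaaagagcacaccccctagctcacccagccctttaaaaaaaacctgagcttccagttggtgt
The capitals of Bst2 hold 2 overlapping matches, Ifit1 holds 2 and Apobec3 holds 1. For Apobec3 a second RefSeq start had no match in its 250 bases. These promoters were chosen for holding the motif. Slfn8, Mndal and Irgm1 held it too, while Trim12a, Irf9, Irf1, Irf7, Psme2, Tap1 and Tapbp had no match in the 250 bases before the start.

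Over windows of 250 bases before to 50 after the start, 1079 of 27025 genes (3.99%) held the motif. Windows were matched by symbol for 422 of the 543 genes of cluster 8, and 25 of those (5.92%) held it. Of the MHC class I genes listed, 0 of 2 with a window held it. Of the listed interferon genes with a window, 9 of 14 (64.3%) held it, and of the interferon genes not listed in cluster 8, 19 of 29 (65.5%) did. Among genes at least 10 points higher that are outside the interferon list, 7 of 156 (4.49%) held it, and among genes at least 10 points lower 2 of 113 (1.77%). A match describes letters in a window and is no evidence of binding.

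Few genes of effector function and receptor signalling were listed. Of 31 effector and cytotoxic genes 2 were listed, with Prf1, the pore-forming protein of killer cells, at 10.5% and 25% and the integrin Itgal at 29.8% and 41.7%. Of 20 inhibitory receptor and activation genes only Cd69, an early activation marker, was listed, at 21.1% and 29.2%. Prf1 and Cd69 had control shares under the 25% limit, so they were listed only through the library in which they were higher. Of 32 receptor signalling genes 2 were listed. Pag1, a membrane adaptor that holds the kinase Csk, was found in 39.2% of control cells and 68.8% of cells in the library labelled depleted, and Nfkbia, the NF-kappaB inhibitor, in 36.8% and 39.6%. The glycolysis and hypoxia list of 18 genes and the YAP/TAZ and Hippo list of 24 had no listed member.

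Immediate early and stress genes were mixed. Of 7 listed immediate early genes 2 were lower, 4 higher and 1 equal, and the differences reaching 10 points were Dusp2, a phosphatase of MAP kinases, at 36.3% and 56.2%, and Zfp36l1, which destabilises AU-rich messages, at 54.4% and 75%. Ddit4, an inhibitor of mTORC1, was found in 15.8% and 47.9%. Hspa5, the chaperone of the endoplasmic reticulum, was found in 65.5% and 77.1%. The cell cycle list of 26 genes had a single listed member, Hmgn2, at 22.2% and 35.4%.

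Adhesion and trafficking genes also split, with 4 of 7 listed genes lower, 2 higher and 1 equal. Itga4, an integrin chain of T cell entry, was found in 69% and 52.1%, Gramd3 in 46.8% and 27.1% and S1pr4, a sphingosine-1-phosphate receptor, in 36.8% and 27.1%. Itgb2, the beta chain that pairs with Itgal, was found in 53.8% and 66.7%, and Itgae, the integrin of tissue-resident CD8 T cells, in 29.2% and 41.7%. Of the 9 listed actin cytoskeleton genes, 8 were higher and 1 equal, led by Was, the Wiskott-Aldrich protein, at 24% and 39.6% and Cap1 at 45.6% and 60.4%, the 2 that reached 10 points. The median of that list was 5.8 points, below the 7 points of all listed genes.

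A list of S100, annexin and galectin genes that also holds Ahnak and Crip1 had 6 listed members, none of them an annexin, with 5 lower and 1, Crip1, higher. Only S100a11 reached 10 points. It was found in 88.3% of control cells and 72.9% of cells in the library labelled depleted, and Lgals1, galectin-1, in 88.9% and 79.2%. The respiratory chain list of 53 genes had 7 listed members, 1 lower and 6 higher, with Ndufc1 at 49.1% and 66.7%, Atp5k at 70.2% and 85.4% and Ndufa12 at 44.4% and 33.3%. Respiratory chain genes outside that list, chosen after their values were seen, were Ndufa5 at 43.3% and 27.1%, Ndufa9 at 25.1% and 14.6%, Ndufb5 at 56.1% and 68.8%, Ndufs3 at 31% and 43.8% and Uqcrc2 at 39.8% and 56.2%, so the genes of the chain ran both ways. Of 5 listed translation factors 2 were lower, 1 higher and 2 equal. The lower ones were Eif4b at 53.8% and 41.7% and Eif4a1 at 90.1% and 79.2%. Of 8 listed chromatin and RNA-binding regulators 2 were lower, 5 higher and 1 equal. Rbm3, the cold-inducible RNA-binding protein, was found in 57.3% and 35.4%, while Chd3 and Srsf5 were 13.8 and 13.7 points higher.

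The largest differences on the lower side were led by noncoding and unnamed genes. BC018473, annotated as a lncRNA (chromosome 11, positions 116642993 to 116650199, GRCm39), was found in 66.1% of control cells and 0% of cells in the library labelled depleted. LOC118568652 stood at 47.4% and 0%, the noncoding Gm40892 at 46.2% and 0%, and 5033421B08Rik at 66.7% and 27.1%. Chil3 was the remaining gene at 0% in the library labelled depleted, and no gene was at 0% in the control library. Among coding genes, Ppdpf was found in 55% and 18.8%, AI467606 in 45% and 12.5%, Gstp1, a glutathione transferase, in 45% and 14.6%, and Glipr2 in 45% and 16.7%. Scaf11 stood at 53.2% and 25%, C1qbp, a mitochondrial protein, at 50.3% and 22.9%, and Ugcg, glucosylceramide synthase, at 45% and 18.8%.

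On the higher side pseudogenes were among the largest differences. Rpl34-ps1 was found in 12.9% of control cells and 54.2% of cells in the library labelled depleted, Gm7429 in 3.5% and 43.8%, Ftl1-ps2 in 1.2% and 33.3% and Rpl27a-ps4 in 53.8% and 85.4%. Gm11478 stood at 1.8% and 31.2% and Gm15682 at 70.2% and 95.8%. Each is a near copy of a coding gene. The transcript of Rpl34-ps1 matched that of Rpl34 at 99.4% over 354 bases, Gm7429 matched Rpl30 at 98.9% over 348, Ftl1-ps2 matched Ftl1 at 97.8% over 549 and Rpl27a-ps4 matched Rpl27a at 98.7% over 447. How the counting divided reads between a gene and such a copy is uncertain, so these shares are uncertain too.

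Near copies were found on the lower side as well. Gm12191 matched Rpl30 at 99.7% over 348 bases and was found in 67.8% and 39.6%, and Rps6-ps4 matched Rps6 at 100% over 750 bases and was found in 76% and 50%. Gm7429 and Gm12191 are thus copies of the same gene whose shares differed in opposite directions. For coding ribosomal protein genes picked by name the shares could show little, since of 18 listed 16 stood at 100% in both libraries. Of the others 1 was lower and 1 was higher. Rps27rt, another coding gene listed for cluster 8, fell outside that name pattern. Ftl1 itself was found in 99.4% and 100%, and Fth1 in 100% and 100%.

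Several of these genes were also widely listed. Ftl1-ps2 was listed in all 17 other cluster tables, Rpl27a-ps4 and Gm15682 in 16, Rpl34-ps1 in 15 and Gm7429 in 13, with a higher share in the library labelled depleted in each. BC018473 was listed in 15 others and Gm12191 in 13, lower in each. In the fibroblast subclusters Ftl1-ps2 was found in 0% to 2.5% of control cells and in 80% to 100% of cells in the library labelled depleted, and BC018473 in 2.5% to 8.7% and 0%. Gm11478 and Rps6-ps4 were listed less widely, in 3 and 8 others. Further genes with large differences were Mettl23 at 22.8% and 47.9%, Micos10 at 60.8% and 85.4% and Gm20559 at 22.8% and 52.1%. Mettl23 was listed in 10 others and higher in each, while Micos10 and Gm20559 were each listed in 2 others and lower in both.

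Transcripts of other cell types were present in cluster 8. Apoe and Lyz2, made by macrophages, were found in 95.3% and 71.9% of control cells and in 93.8% and 72.9% of cells in the library labelled depleted. Of 16 macrophage and monocyte markers these and Chil3, at 25.7% and 0%, were listed, and the summed share of the 3 was 192.9% and 166.7%. The neutrophil gene S100a8 stood at 38.6% and 39.6% and S100a9 at 50.9% and 39.6%, 2 of 14 markers, with sums of 89.5% and 79.2%. H2-Ab1, an MHC class II chain, stood at 55% and 50%, 1 of 14 B cell markers. Mgp, 1 of 12 fibroblast markers, stood at 33.3% and 12.5%. No gene of the lists of 5 erythroid, 9 cardiomyocyte and 6 endothelial markers was listed, while Actn2, an actinin of striated muscle outside those lists, stood at 18.1% and 35.4%.

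The same transcripts differed in fibroblasts, which should lack the myeloid ones. In the subclusters Chil3 was found in 43.5% to 80% of control cells and in 0% to 9.4% of cells in the library labelled depleted, and S100a9 in 85% to 96.7% and in 38.1% to 60%. Lyz2 was found in 80% to 90% and in 47.6% to 70%. In cluster 8 the shares of these genes lay below the fibroblast range in the control library. In the library labelled depleted those of Chil3 and S100a9 lay within it and that of Lyz2 lay just above. No expression by T cells is read from the shares of Chil3 and S100a9, and the depths of the fibroblast subclusters are unknown. Mgp, which fibroblasts make, was found there in 94.5% to 100% and in 93.8% to 100%. The part of free RNA in the other differences of cluster 8 was not tested.

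Set against the other clusters, 41 of the 543 genes (7.55%) were listed in cluster 8 alone, 7 of them lower and 34 higher. Over all 543 genes 34.6% were lower and 60.2% higher. A further 51 (9.39%) were shared only with other T cell clusters, 131 (24.1%) only with other cell types and 320 (58.9%) with both. Clusters 4, 6, 7, 9 and 10 were taken as the other T cell clusters. The text of the study names 4, 7 and 10 as T cells, proposes proliferating T cells for 6 and 10, and gives no cell type for 9. With 4, 7 and 10 alone the number 51 became 28. Being listed in no other table does not show that a gene is even elsewhere, since the limits on share and fold decide the listing and all tables compare the same 2 libraries. The 41 genes had a median share of 22.2% in control cells and 31.2% in cells of the library labelled depleted, so many lay close to the 25% limit. Many of the higher genes were thus listed only through the library in which they were higher, which favours that direction.

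The genes listed in cluster 8 alone include several with known T cell roles. On the lower side were Skap1 and Ccr7, given above, with Lcn4 at 39.2% of control cells and 14.6% of cells in the library labelled depleted, Rev3l, the catalytic chain of a translesion polymerase, at 28.7% and 10.4%, Surf1 at 26.3% and 10.4%, Acat1 at 25.7% and 10.4% and Twistnb at 31.6% and 16.7%. These are all 7 lower genes. On the higher side, the largest differences were those of Sh3bp5 at 28.1% and 50%, Ccnt1, a cyclin of transcription elongation, at 18.7% and 39.6%, the phosphatase Ppp5c at 6.4% and 25%, and Actn2, given above. They were followed by the kinase Oxsr1 at 9.9% and 27.1%, the cochaperone Fkbp4 at 24.6% and 41.7%, Sesn3 at 25.1% and 41.7% and Zfp869 at 17% and 33.3%. Itgae, Cd69, Gbp9 and Nlrc5 are in the same class.

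Genes shared only with other T cell clusters divided nearly evenly, 24 lower and 27 higher. Lower were Bcl2 and Dapl1, Acp5 at 77.8% and 54.2%, Ubald2 at 33.9% and 10.4%, and Tnfsf8, the CD30 ligand, at 39.8% and 16.7%. Higher were Rgcc at 36.8% and 58.3%, Tsix at 29.8% and 50%, and Rsrc2 at 41.5% and 60.4%. In the fibroblast subclusters Acp5 was found in 13% to 77.5% of control cells and 38.1% to 81.2% of the others. Its share in cluster 8 lay just above that range in the control library and within it in the library labelled depleted.

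At the other end, 56 genes (10.3%) were listed in at least 9 other clusters, 16 lower, 28 higher and 12 equal, with median shares of 69% and 78.15%. All 5 other T cell clusters listed 14 of the genes of cluster 8. Cluster 4 listed 450 genes, of which 163 were shared, which is 30% of cluster 8 and 36.2% of cluster 4. Cluster 7 listed 421 genes, of which 104 were shared, 19.2% of cluster 8 and 24.7% of cluster 7.

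**Figure D4:**
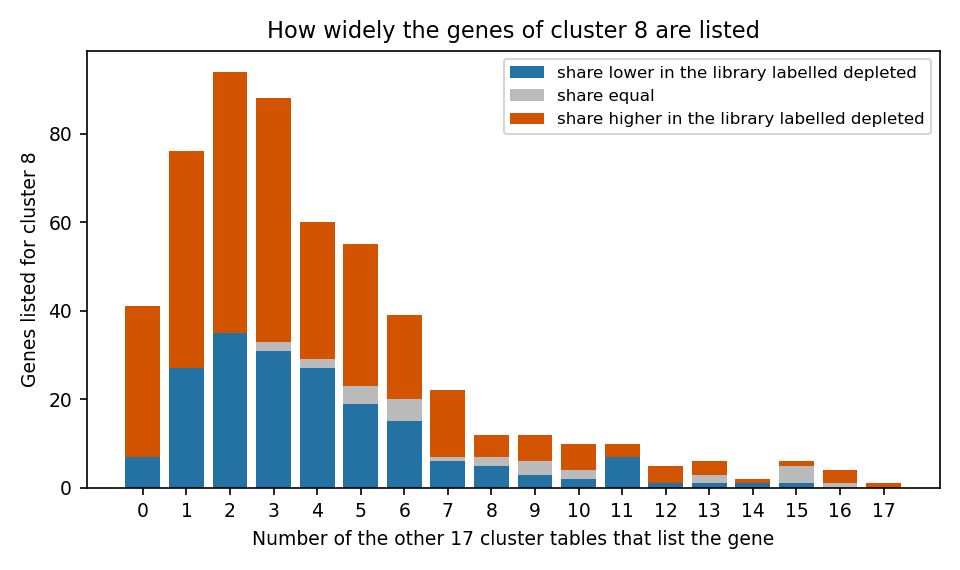
Number of genes listed for cluster 8 (vertical axis) by how many of the other 17 cluster tables also list them (horizontal axis), divided by the direction of the difference in cluster 8. The bar at 0 holds the 41 genes listed in cluster 8 alone, 34 of them higher in the library labelled depleted, beside 60.2% higher over all listed genes.

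Cluster 4 also listed part of the lower naive and survival genes, with Ccr7 and Pim2 among those it did not list. Il7r was found there in 81.4% of control cells and 64.8% of cells in the library labelled depleted, Igfbp4 in 64.8% and 41.7%, Klf3 in 63.8% and 41.3% and Dapl1 in 32.7% and 16.5%. Bcl2 stood at 64.8% and 50.9%, Gimap3 at 74.2% and 52.2%, Pim1 at 62.6% and 32.2% and Ms4a4b at 95.9% and 67.8%. The naive list had 13 listed members in cluster 4, 10 lower and 3 higher, against 22.9% lower and 64.7% higher over its listed genes, with a median of -11.9 points beside 12.15 over all its listed genes. Cluster 7 listed 1 gene of that list. Gimap3 stood there at 83.8% and 74.2% and Pim1 at 72.7% and 46.5%. Because the clusters share both libraries, these values are set side by side and not counted as independent support.

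The higher genes were shared in part. Ccr9 was found in 6% of control cells and 46.5% of cells in the library labelled depleted in cluster 4, and Pag1 in 45.3% and 55.7% and Ddit4 in 11% and 37.4%. Trim12a stood at 21.4% and 47% in cluster 4 and at 23.2% and 47.2% in cluster 7. Apobec3 stood at 9.4% and 30% in cluster 4 and at 26.3% and 54.7% in cluster 7.

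As a list, the interferon genes differed in their split from cluster to cluster. In cluster 4, 8 were listed, 5 lower and 3 higher against the 22.9% and 64.7% given above, and in cluster 7, 11 were listed, 1 lower and 10 higher, against 67.5% lower and 27.1% higher over all genes listed there. Clusters 6, 9 and 10 listed 9, 8 and 14, with 7, 4 and 10 lower, against 64.3%, 64.4% and 47.0% lower over all their listed genes. The study describes those 3 clusters as made mostly of cells of the floxed genotype, so their control shares rest on few cells. The differences between clusters were not tested.

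**Figure D5:**
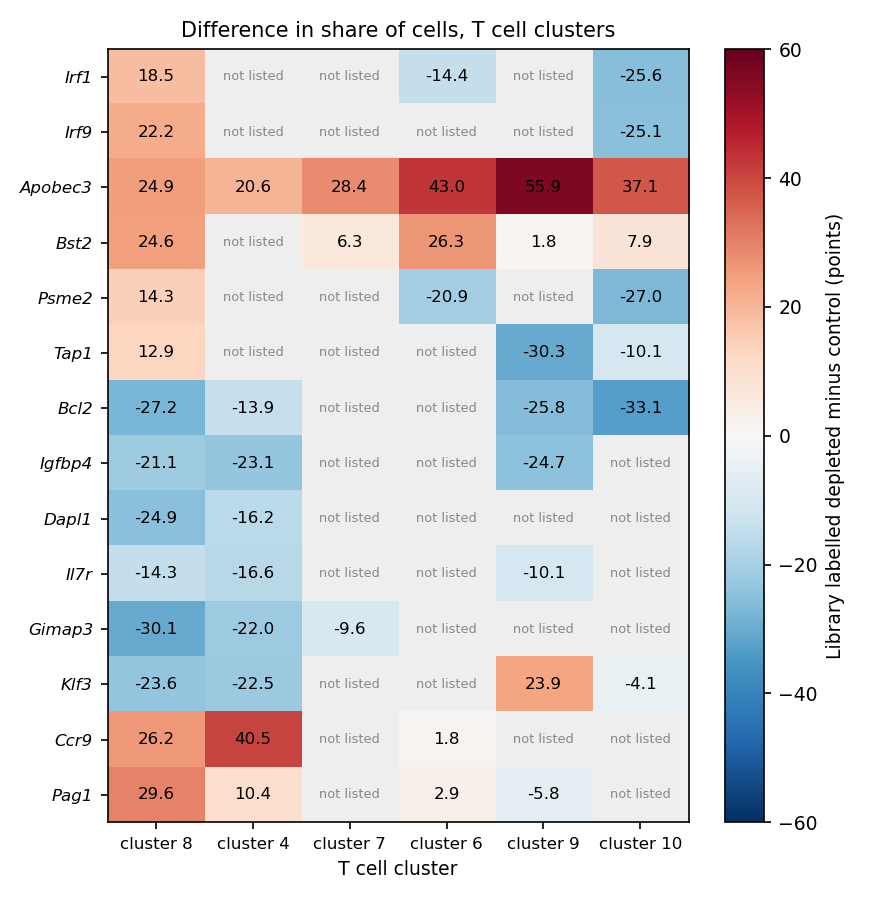
Difference in share of cells, library labelled depleted minus control in points, for 14 genes in the 6 clusters taken as T cells. Colour follows the difference and grey cells carry no value because the gene was not listed in that cluster. Bcl2 is negative in clusters 8, 4, 9 and 10, while Apobec3 is positive in all 6 and Irf1 is positive in cluster 8 and negative in clusters 6 and 10.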

How the data were processed

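Ventricular interstitial cells were strained, sorted as live cells and profiled by droplet single-cell RNA sequencing, 1 library per genotype. The authors aligned reads with Cell Ranger 6.1.1 to GRCm39 with added reporter sequences, merged the 2 libraries without equalising depth, and in Seurat applied SCTransform, clustering and a comparison of genotypes within each cluster. Their methods name no doublet caller, so doublets may remain. The deposited tables hold, per gene, each library's fraction of cells in which the corrected count exceeded 0, and also the authors' own average log2 fold changes, p-values and adjusted p-values, which were not used.

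Fractions were multiplied to percent and subtracted with Python 3.11.15 and pandas 2.3.3. Scripts were tested on simulated data. With 1 library per group, no test, interval or detection limit was computed, and intervals would have needed cell numbers. A difference of 10 points marked a gene as called. On the ratio scale 1 point was added to each share. Named genes were the 15 largest differences in each direction, the 8 and 5 largest in each direction among genes listed in cluster 8 alone and with other T cell clusters only, list members differing by 10 points, all listed markers and the targeted genes. Members and lists were chosen with earlier results of these data known. Positions came from GENCODE (GRCm39), matched by symbol for 524 of the 543 genes, and promoters from RefSeq (GRCm38.p6). Pseudogene transcripts were aligned to coding transcripts with BLAST 2.17.0. Alternatives were other sizes, scales, filters and sets of tables. Some genes are not reported here and were left out of the gene lists, while counts over all listed genes include them. Cluster 16 was not analysed here.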

Additional observations from a re-analysis of the deposited data

Results flagged for a closer look

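Of the 114 named genes, 13 differed in cluster 8 by at least 10 points in 1 direction and in another T cell cluster by at least 10 points in the opposite direction, which gave 16 gene and cluster pairs. The difference between clusters was not tested, since each cluster has 1 library per genotype. Of the pairs, 8 were in cluster 10, 4 in cluster 9, 3 in cluster 6 and 1 in cluster 7. None of the 43 named genes listed in cluster 4 did so. The study describes clusters 6, 9 and 10 as mostly cells of the floxed genotype. Their control shares, and so the differences given below for them, rest on few control cells.

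In cluster 10, 8 of the named genes that were higher in cluster 8 were lower in the library labelled depleted. The differences were -14.9 points for Gbp4, -25.6 for Irf1, -25.1 for Irf9, -27 for Psme2 and -10.1 for Tap1, all of the interferon and class I lists, and -19 for Itgal, -23.3 for Itgb2 and -10 for Zfp36l1. In cluster 6 they were -14.4 for Irf1, -23 for Mndal and -20.9 for Psme2.

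In cluster 9 the differences were -30.3 points for Tap1 and -14.8 for Was, while Klf3 and S100a11, lower in cluster 8, were higher there by 23.9 and 14.6 points. In cluster 7 the pair was Hmgn2, at -12.5 points.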

How the results depend on the processing

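Values rest on 1 library per genotype, so no replicate spread could be given. Cell numbers were not given and depth is unknown. The steps of 0.6 and 2.1 points between shares mean fewer cells in the library labelled depleted, and no error of a share was computed. No paired analysis was possible because there was only 1 library of each genotype. Of the 188 lower and 327 higher genes, a minimum of 20 points left 43 and 41, and 25% of cells in both libraries left 113 and 204. For the 147 lower and 220 higher genes of at least 10 points, a log2 ratio of at least 1 left 46 and 34, and centring, chosen after seeing the data, left 75 higher. Centring leaves 270 genes lower and 271 higher. The 41 genes listed in no other cluster became 66 without clusters 6, 9 and 10, 66 where sharing needed a difference of 5 points elsewhere, and 172 against T cell clusters alone. The 56 genes listed in at least 9 other clusters became 184 at 5 and 19 at 13, and the 51 shared with T cell clusters only became 28 with clusters 4, 7 and 10. Among the 16 interferon genes at least 10 points higher, 6 were at 25% or more in both libraries and 9 were left after centring, both chosen after seeing the data. The 7 lower naive genes were 7 and 8 under the same changes. The ratio scale keeps the sign of every difference, and centring moves each by 7 points only. Neither could therefore reverse a difference of at least 10 points, so they give no check of direction.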
